A study of Mus musculus with 6 samples.

Results

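Oxidative phosphorylation genes were followed in whole brains of heterozygous periphilin knockout mice and wild-type mice. Members were all probe sets that the platform annotation gave to exactly 1 gene whose symbol belongs to the nuclear-encoded subunits of respiratory complexes I to IV or of ATP synthase (Nduf with a, b, c, s or v, Sdha to Sdhd, Uqcr, Cyc1, Cox4 to Cox8 and Atp5). This gave 180 probe sets of 91 genes, of 34958 probe sets of 18194 genes with a single-gene annotation. By complex, 42 genes fell to complex I, 4 to complex II, 9 to complex III, 19 to complex IV and 17 to complex V. The symbols also took in 8 assembly factors of complex I (Ndufaf genes) and Cox7a2l, a factor of respiratory supercomplexes, which are given apart. Ndufa4 and its relative Ndufa4l2, whose names place them in complex I, were counted with complex IV, where the Ndufa4 protein sits.

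The heterozygous animals carried 1 knockout and 1 intact copy of periphilin (Pphln1), a subunit of the HUSH silencing complex, and the wild-type animals were their C57BL/6 littermates. All were males, 2 months old. There were 3 brains per genotype, each hybridised to its own 3′-biased Affymetrix array, so the spread between arrays includes that between animals. The labels do not state how the knockout allele was made.

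Oxidative phosphorylation is the last stage of respiration in the inner mitochondrial membrane. Complexes I and II pass electrons from NADH and succinate to ubiquinone, complex III passes them on to cytochrome c and complex IV to oxygen, and ATP synthase (complex V) uses the proton gradient that complexes I, III and IV build. The brain depends on it for most of its ATP, much of which is spent on ion pumping in neurons.

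Subunits of these complexes are encoded on many chromosomes, and their promoters are known to be bound by NRF1, by GABPA and other ETS factors, by YY1 and by ERR alpha. RefSeq promoters of build GRCm38.p6, 250 bases before to 50 bases after the start of transcription, matched 74 member genes. They were searched on both strands for GCGCATGC (NRF1), CCGGAAG (ETS factors), AAGATGGCG (YY1) and AAGGTCA (ERR alpha). The NRF1 letters read nearly alike on both strands, so 1 place can match on each, in overlap. At least 1 of the 4 motifs stood in the promoters of 34 genes, and both the NRF1 and the ETS letters in those of 5 genes: Sdhb of complex II, Uqcr11 of complex III, Cox6a1 of complex IV, and Atp5k and Atp5l of complex V. These 5 are printed to show how the motifs lie against the start site. The promoters of Ndufv1, of complex I, and Ndufa4, of complex IV, are printed because these genes carry the comparison of single genes below, and they hold none of the 4 motifs in this window. Capitals mark motif matches.
Ndufv1 promoter, chr19:4012706-4013005, minus strand: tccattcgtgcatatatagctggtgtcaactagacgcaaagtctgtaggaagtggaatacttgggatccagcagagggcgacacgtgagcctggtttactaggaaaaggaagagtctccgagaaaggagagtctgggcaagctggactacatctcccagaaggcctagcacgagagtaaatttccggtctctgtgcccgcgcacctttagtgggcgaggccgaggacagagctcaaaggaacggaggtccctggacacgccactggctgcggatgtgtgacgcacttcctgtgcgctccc
Sdhb promoter, chr4:140961021-140961320, plus strand: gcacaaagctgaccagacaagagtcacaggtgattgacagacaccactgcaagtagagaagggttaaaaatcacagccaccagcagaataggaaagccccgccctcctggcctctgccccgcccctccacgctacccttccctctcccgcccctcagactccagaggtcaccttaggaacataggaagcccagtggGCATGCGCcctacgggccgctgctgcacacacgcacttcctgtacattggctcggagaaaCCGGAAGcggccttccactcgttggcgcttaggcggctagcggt
Uqcr11 promoter, chr10:80406772-80407071, minus strand: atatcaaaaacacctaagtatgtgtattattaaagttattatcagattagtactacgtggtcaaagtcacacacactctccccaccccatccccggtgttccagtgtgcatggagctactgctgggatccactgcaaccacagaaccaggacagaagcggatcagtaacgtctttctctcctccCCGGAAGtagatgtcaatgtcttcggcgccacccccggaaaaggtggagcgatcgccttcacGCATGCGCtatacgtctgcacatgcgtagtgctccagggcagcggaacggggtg
Cox6a1 promoter, chr5:115348909-115349208, minus strand: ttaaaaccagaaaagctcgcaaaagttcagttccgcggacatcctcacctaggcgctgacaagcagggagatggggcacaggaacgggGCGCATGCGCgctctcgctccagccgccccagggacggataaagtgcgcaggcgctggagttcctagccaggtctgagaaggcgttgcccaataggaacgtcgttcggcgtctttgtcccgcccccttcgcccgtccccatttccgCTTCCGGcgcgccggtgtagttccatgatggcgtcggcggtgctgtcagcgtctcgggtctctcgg
Ndufa4 promoter, chr6:11907401-11907700, minus strand: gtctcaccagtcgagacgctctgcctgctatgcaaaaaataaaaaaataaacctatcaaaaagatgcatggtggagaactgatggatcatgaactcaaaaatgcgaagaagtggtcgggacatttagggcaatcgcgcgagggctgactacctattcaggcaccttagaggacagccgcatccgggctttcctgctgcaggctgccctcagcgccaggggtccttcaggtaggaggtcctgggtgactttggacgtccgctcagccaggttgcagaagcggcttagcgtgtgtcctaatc
Atp5k promoter, chr5:108434350-108434649, minus strand: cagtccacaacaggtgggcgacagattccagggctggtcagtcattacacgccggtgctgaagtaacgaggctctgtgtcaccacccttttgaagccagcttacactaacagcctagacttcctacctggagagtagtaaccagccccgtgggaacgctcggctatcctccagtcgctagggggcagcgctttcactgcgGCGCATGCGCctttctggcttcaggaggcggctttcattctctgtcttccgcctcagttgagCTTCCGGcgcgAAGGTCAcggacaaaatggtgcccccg
Atp5l promoter, chr9:44920693-44920992, minus strand: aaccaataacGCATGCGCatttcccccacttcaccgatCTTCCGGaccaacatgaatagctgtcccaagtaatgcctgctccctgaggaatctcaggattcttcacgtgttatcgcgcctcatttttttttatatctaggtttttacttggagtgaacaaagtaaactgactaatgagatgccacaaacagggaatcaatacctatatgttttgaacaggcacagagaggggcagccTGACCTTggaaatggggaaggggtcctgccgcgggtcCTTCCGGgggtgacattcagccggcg

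The motifs stood more often in the members' promoters than in all 32851 promoters of the table, which is a description of the sequences. The NRF1 letters were in 13.9% of the 79 member promoters and 2.71% of all promoters, and the ETS letters in 24.1% of member promoters and 8.86% of all. The YY1 letters were in 8.86% of member promoters and 1.40% of all promoters, and the ERR alpha letters in 10.1% of member promoters and 4.72% of all. Among the 21262 promoters of protein-coding genes the shares were 3.51% for NRF1, 11.6% for ETS, 1.83% for YY1 and 4.08% for ERR alpha. In Sdhb the first base of the NRF1 match lay at position -54 and that of the ETS match at position 6, counted from the start site at 0. The expression difference described below had a median of 0.12 on the log2 scale over the 11 tested genes with the NRF1 letters and of 0.06 over the 62 without. For the ETS letters the medians were 0.07 over 19 genes with them and 0.08 over 54 without. For the YY1 letters they were 0.06 over 7 genes and 0.08 over 66, and for the ERR alpha letters 0.11 over 7 and 0.07 over 66. None of these contrasts was tested.

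Signals are the deposited intensities, which are linear. Differences are of log2(signal + 16), heterozygous minus wild type, a scale that understates the change of dim probe sets, and a level is never compared between genes. Each gene is represented by its brightest tested probe set. After removal of dim probe sets, at or below a mean signal of 19.1, 89 of the 91 genes and 161 of the 180 probe sets were tested. The 2 genes left out were Cox4i2 and Ndufb4. Transcripts of a pseudogene or paralog can add to a probe set's signal, most of all in the 48 member probe sets with the suffix _s or _x. Ndufs6, Ndufa11 and the main Ndufb4 transcript were on the array through probe sets that the annotation gave to several genes, which were kept out of the members.

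As background, the 6 arrays had medians of 31.6 to 34.5 in heterozygous and 31.2 to 33.1 in wild-type brains. Pphln1 had signals of 353, 269 and 338 in heterozygous and 295, 290 and 314 in wild-type brains at its brighter probe set, and of 30.6, 44.4 and 36.6 in heterozygous and 63.2, 47.3 and 46.3 in wild-type brains at the dimmer one. The genotypes overlapped at the brighter probe set and not at the dimmer, and neither passed the test (limma adjusted p = 0.97 and 0.956). The labels do not state which exons the knockout removes, so neither probe set is a full check of the labels. All 12 neuronal markers were tested, and 8 were higher in sign (median difference 0.03). Their signals summed to 36449 to 41005 in heterozygous and 36704 to 38049 in wild-type brains, with overlap. The 8 astrocyte markers summed to 13022, 12826 and 11689 in heterozygous brains and to 13212, 13225 and 13025 in wild-type brains, lower in every heterozygous brain. Of these markers 2 were higher in sign (median difference -0.08) and 0 passed the adjusted test. Their part in the members' differences was not tested. For oligodendrocyte, microglia, endothelium and blood markers the summed signals of the genotypes overlapped. Pituitary markers, 6 of 7 tested, summed to 224, 185 and 6709 in heterozygous brains and to 21234, 857 and 791 in wild-type brains, so wild-type brain 1 and heterozygous brain 3 stood apart in that tissue.

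Most member genes had a slightly higher mean signal in heterozygous than in wild-type brains, and no single gene passed the test. Of the 89 genes, 66 were higher in sign and 23 lower, with a median log2 difference of 0.09. Over all 13024 genes tested, 52.0% were higher in sign and the median was 0.01. Among the 7261 genes with a mean signal of at least 148.6, a floor that 9 of 10 members exceed, the share was 51.9%. The median standard error of a member's own difference, 0.10, was as large as the members' median. At an adjusted p of 0.05 (limma, two-sided, Benjamini-Hochberg over all 27022 probe sets) 0 of the 89 genes and 0 of the 161 probe sets were called, and the lowest adjusted p among them was 0.956. Over all genes 0.00768% were called. At an unadjusted limma p under 0.05, 3 members were higher (Ndufa4, Ndufv1 and Sdhb) and 0 were lower, where 2.14% of all genes were higher and 2.28% lower. The members' share of higher genes, 3 of 89, is close to that background.

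All 3 heterozygous arrays lay above all 3 wild-type arrays in 8 members (8.99%), and below them in 0. Over all genes tested, 5.21% did not overlap in the higher direction and 4.97% in the lower. The 8 were Ndufv1, Ndufv2, Ndufa6, Ndufa9, Ndufaf4, Ndufaf8, Ndufa4 and Atp5a1. Of these, 6 belong to complex I, as do 41 of the 89 tested members. Ndufaf4 and Ndufaf8 among the 6 are assembly factors. An exact permutation test of a single gene cannot go below p = 0.1 with 3 against 3 arrays. Absence of overlap always gives that value, so the test adds nothing for these 8. The count of 8 fell to 1 (1.12%) with median centring, where 3.29% of all genes did not overlap in that direction, and to 3 (3.37%) with probe sets averaged, where 5.33% did. It was 36 (40.4%) without wild-type brain 2 and 27 (30.3%) without heterozygous brain 3, where 11.9% and 11.7% of all genes did not overlap in that direction.

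**Figure D1:**
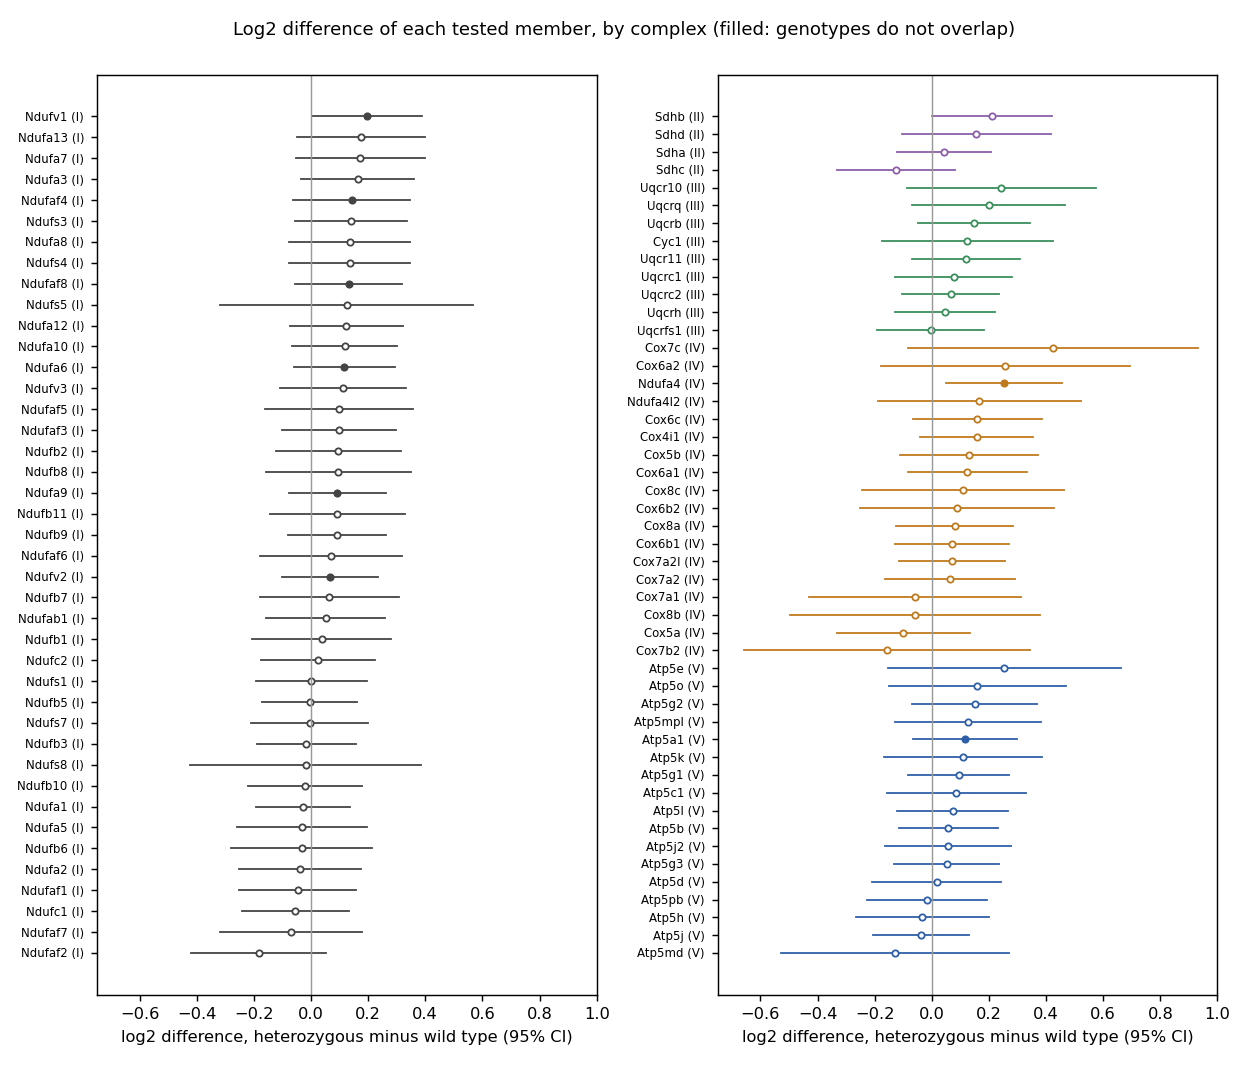
Log2 difference (x axis, heterozygous minus wild type) of each of the 89 tested members, by gene (y axis) and complex in brackets. Points are estimates from 3 arrays per genotype, lines 95% confidence intervals, and filled points mark the 8 genes whose genotypes did not overlap; the interval lies wholly above 0 for Ndufa4, Ndufv1 and, by a small margin, Sdhb, and wholly below it for none.

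Summed over members, the arrays did not separate by genotype. The level of an array was the mean over the 89 genes of the log2 value minus the gene's mean over the 6 arrays. It was 0.05, 0.10 and -0.04 in heterozygous brains 1 to 3, and -0.09, 0.06 and -0.07 in wild-type brains 1 to 3. Wild-type brain 2 lay above heterozygous brains 1 and 3, and the lowest arrays were wild-type brains 1 and 3. The heterozygous mean was 0.04 ± 0.07 and the wild-type mean -0.04 ± 0.08 (SD, n = 3 each), a difference of 0.07 that is about as large as the spread within a genotype. The numbers of genes above their own mean were 61, 72 and 29 in heterozygous and 18, 71 and 18 in wild-type brains. The same count over all 13024 genes lay between 6254 and 6854 on every array, and the level over all genes spanned 0.02 against 0.20 for the members. Without wild-type brain 2 the median difference of the members was 0.13, and without wild-type brain 1 it was 0.05, and without wild-type brain 3 it was 0.06. In a bulk sample, fewer cells of a type and less RNA per cell cannot be told apart.

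**Figure D2:**
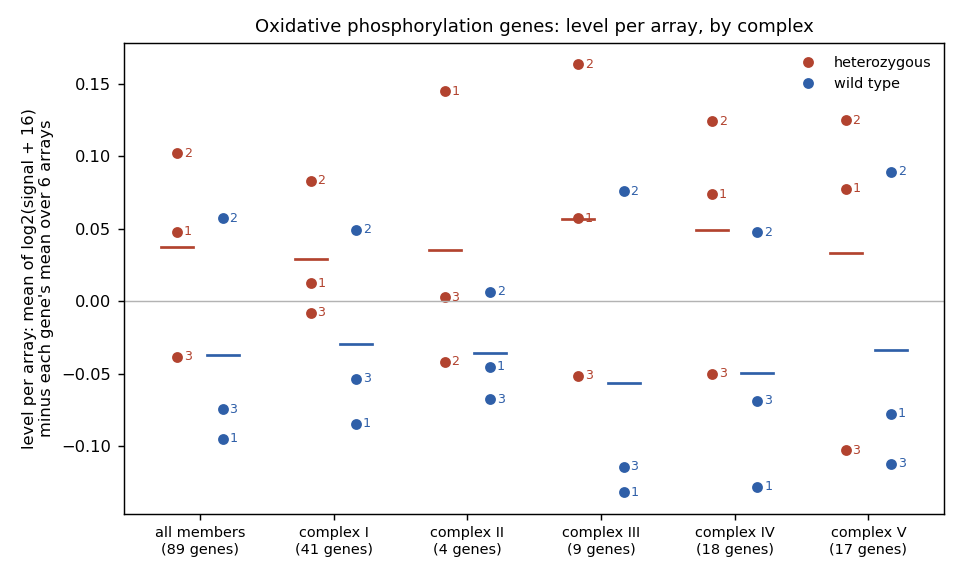
Level per array (y axis, mean over genes of log2(signal + 16) minus each gene's mean) for all members and each complex (x axis), heterozygous brains left and wild-type brains right, with replicate numbers beside the points and bars at the means. Heterozygous brain 2 and wild-type brain 2 are high, and wild-type brains 1 and 3 low, in complexes I, III, IV and V, so the genotypes overlap in each.

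**Figure D3:**
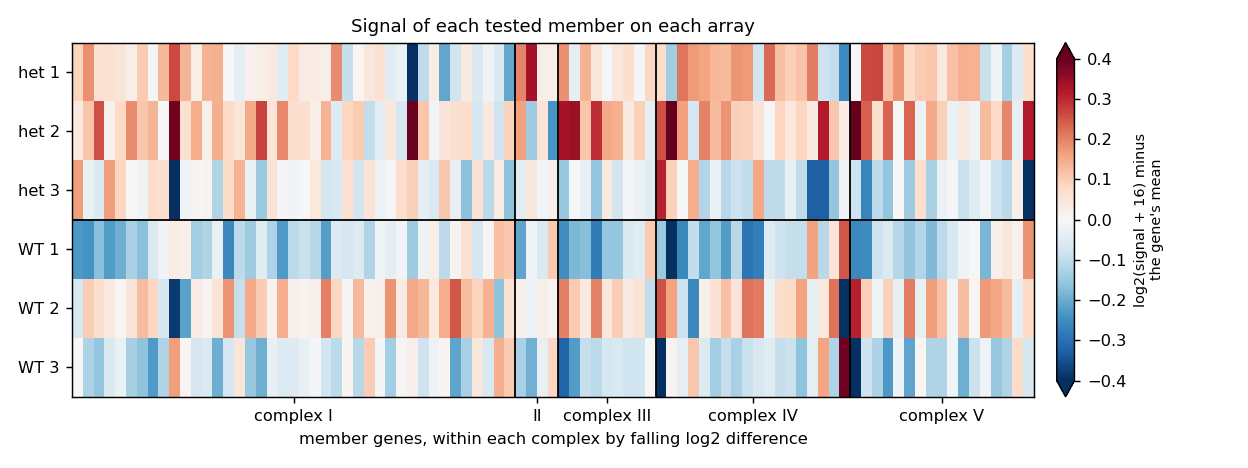
Log2(signal + 16) minus the gene's mean over 6 arrays (colour) for the 89 tested members (columns, by complex) on each array (rows, heterozygous above wild type). Heterozygous brain 2 and wild-type brain 2 are mostly red, with 72 and 71 genes above their own mean, and wild-type brains 1 and 3 mostly blue, with 18 genes each.

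The members moved together from brain to brain within a genotype. The mean pairwise correlation of their deviations from the genotype means was 0.28 over 89 genes, against 0.00 over all genes. Such co-movement was not particular to the members, since it was 0.51 in glycolysis, 0.36 in cytosolic ribosomal proteins and 0.12 in proteasome subunits. By complex it was 0.24 in complex I, 0.52 in complex III, 0.31 in complex IV and 0.32 in complex V. These are descriptions over 6 arrays, whose labelling and scaling the genes share. Control probe sets are given beside them. The 3′ signal of 18S ribosomal RNA was 110, 158 and 162 in heterozygous brains and 114, 237 and 123 in wild-type brains, highest in wild-type brain 2. The 3′ to 5′ ratio of Gapdh was 0.747, 0.748 and 0.755 in heterozygous and 0.713, 0.731 and 0.729 in wild-type brains, without overlap. That ratio for beta-actin was 1.72, 1.62 and 1.60 in heterozygous and 1.70, 1.66 and 1.64 in wild-type brains, with overlap. The part of RNA quality, or of dissection, in the members' level was not tested. With the 2 arrays of highest pituitary signal left out, a step added after the data had been seen, the members' median was 0.08.

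Complex I takes electrons from NADH, and its 41 tested genes comprised 28 higher and 13 lower in sign, with a median of 0.09 and a range of -0.18 to 0.20. None passed the adjusted test. The median was 0.04 without wild-type brain 1 and 0.05 without heterozygous brain 2 or wild-type brain 3. The 6 tested core subunits, most of which carry the flavin or iron-sulfur clusters, had 4 higher and 2 lower (median 0.03). The 27 accessory subunits had 19 higher and 8 lower (median 0.09), and the 8 assembly factors 5 higher and 3 lower (median 0.08).

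Ndufv1, the core subunit that binds NADH and flavin, had signals of 1991, 1921 and 2103 in heterozygous brains and of 1594, 1789 and 1871 in wild-type brains. Every heterozygous brain lay above every wild-type brain, by a small margin between heterozygous brain 2 and wild-type brain 3. The mean was 2005 ± 91.8 in heterozygous and 1751 ± 142 in wild-type brains (SD, n = 3 each), and the fitted log2 difference was 0.20 ± 0.09 (SE; adjusted p = 0.956 by limma). The other tested probe sets of Ndufv1 gave 0.05 and -0.00, so the difference was seen at 1 of its 3 probe sets. Ndufv2, the core iron-sulfur subunit that is its neighbour in the complex, had 2910, 2889 and 2925 in heterozygous brains and 2622, 2885 and 2830 in wild-type brains, which did not overlap, a difference of 0.07. Its other tested probe sets gave the opposite sign, -0.04 and -0.18.

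Ndufa3, an accessory subunit of the membrane arm, had signals of 3554, 3443 and 3820 in heterozygous brains and of 2912, 3493 and 3267 in wild-type brains. Wild-type brain 2 lay above heterozygous brain 2, and the difference was 0.16 (SE 0.09, adjusted p = 0.956 by limma). At its second probe set the genotypes did not overlap, with 2728 to 3055 in heterozygous and 2401 to 2722 in wild-type brains and a difference of 0.19. Ndufc1, a small accessory subunit, lay at the other end with 2629, 2729 and 2463 in heterozygous brains and 2671, 2926 and 2540 in wild-type brains, overlapping, a difference of -0.06, and its other probe set gave 0.07.

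Ndufs4, an accessory subunit beside the NADH-binding module whose loss causes encephalopathy in mice, gave opposite signs at its probe sets. At the brightest, 1448959_at, signals were 829, 916 and 878 in heterozygous brains and 799, 883 and 710 in wild-type brains. These overlapped, and the difference was 0.13 (SE 0.10, limma adjusted p = 0.956). At 1438166_x_at they were 100, 103 and 122 in heterozygous brains and 132, 134 and 148 in wild-type brains, so every heterozygous brain was lower, a difference of -0.31. At the third tested probe set, 1418117_at, they were 236, 228 and 227 in heterozygous brains and 224, 215 and 210 in wild-type brains. There every heterozygous brain was higher, a difference of 0.08. No direction can be given for Ndufs4.

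Ndufaf2 is an assembly factor that attaches late to the growing complex and is a paralog of the subunit Ndufa12. It had the lowest difference of the complex, -0.18 (SE 0.11), with signals of 222, 276 and 229 in heterozygous brains and 280, 270 and 278 in wild-type brains. Heterozygous brain 2 lay within the wild-type range. The assembly factor Ndufaf4 had 388, 397 and 398 in heterozygous and 325, 377 and 367 in wild-type brains, a difference of 0.14 without overlap, and -0.01 at its other probe set. Ndufaf8, the partner of Ndufaf5, gave 0.13 without overlap, and 0.05 at its other probe set.

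Complex II, which is also the succinate dehydrogenase of the Krebs cycle and has no mitochondrially encoded subunit, had 3 genes higher and 1 lower in sign, with a median of 0.10 that was 0.04 without heterozygous brain 1 and 0.03 when probe sets were averaged. Sdhb, its iron-sulfur subunit, had signals of 2796, 2734 and 2363 in heterozygous brains and of 2105, 2481 and 2229 in wild-type brains. Heterozygous brain 3 fell within the wild-type range, and the difference was 0.21 (SE 0.10, limma adjusted p = 0.956). Sdhc, a membrane anchor that helps to bind the heme, had 940, 780 and 935 in heterozygous brains and 992, 924 and 977 in wild-type brains. Heterozygous brains 1 and 3 lay inside the wild-type range and heterozygous brain 2 below it, a difference of -0.13 (SE 0.09), and the second Sdhc probe set gave -0.17. The flavin subunit Sdha gave 0.04 and the other anchor Sdhd 0.16, against -0.15 at the second Sdhd probe set. The level of complex II over its 4 genes was 0.14, -0.04 and 0.00 in heterozygous and -0.05, 0.01 and -0.07 in wild-type brains, so heterozygous brain 2, high in the other complexes, was not high here.

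Complex III passes electrons from ubiquinol to cytochrome c. Of its 9 genes, 8 were higher in sign and 1 lower, with a median of 0.12, and in none did the genotypes separate. The 7 small and scaffold subunits were all higher in sign, from 0.05 to 0.24. The median was 0.05 without wild-type brain 1, 0.06 without heterozygous brain 2 and 0.05 when probe sets were averaged.

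Uqcrq, a small subunit bound to cytochrome b, had signals of 1571, 2048 and 1601 in heterozygous brains and of 1419, 1735 and 1378 in wild-type brains. Wild-type brain 2 lay above heterozygous brains 1 and 3, and the difference was 0.20 (SE 0.12, limma adjusted p = 0.956). Its other tested probe set, a dim one, gave -0.21, and averaging both turned the sign to -0.00. Uqcrb, which also contacts cytochrome b, had 8779, 8612 and 7802 in heterozygous brains and 7075, 8183 and 7479 in wild-type brains. These overlapped, with a difference of 0.15 (SE 0.09), and its other probe set gave -0.06.

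Uqcr10, another small subunit, was measured by 3 tested probe sets that gave 0.24, 0.27 and 0.29. At its brightest probe set signals were 1815, 2019 and 1438 in heterozygous brains and 1347, 1839 and 1276 in wild-type brains. The genotypes overlapped, with heterozygous brains 1 and 3 below wild-type brain 2. The lowest member was Uqcrfs1, the Rieske iron-sulfur protein, with 1750, 1606 and 1598 in heterozygous brains and 1779, 1543 and 1651 in wild-type brains, a difference of -0.00. Uqcrh, the hinge protein that binds cytochrome c1, gave 0.05 (SE 0.08), and Cyc1, cytochrome c1 itself, gave 0.12 (SE 0.14).

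Complex IV reduces oxygen, and several of its small subunits exist as a common isoform and one restricted to muscle, lung or testis. Of its 18 tested genes 14 were higher and 4 lower in sign, with a median of 0.10. Among the 10 common nuclear-encoded subunits 9 were higher in sign (median 0.13). The median of the complex was 0.05 without wild-type brain 1, 0.06 without heterozygous brain 1 and 0.17 without wild-type brain 2.

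Ndufa4, a complex IV subunit first described in complex I, had signals of 3228, 3117 and 2785 in heterozygous brains and of 2325, 2622 and 2711 in wild-type brains. Every heterozygous brain lay above every wild-type brain, with a narrow gap between heterozygous brain 3 and wild-type brain 3. The mean was 3043 ± 230.2 in heterozygous and 2552 ± 202 in wild-type brains (SD, n = 3 each), and the 95% interval of the log2 difference, 0.25, ran from 0.05 to 0.45 (adjusted p = 0.956 by limma). Ndufa4 was tested by 1 probe set. Of the 8 members without overlap, Ndufa4 and Ndufv1 among them, the count fell to 1 with median centring.

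Cox7c, a small subunit, had the largest estimate of any member, 0.42, from a dim probe set. Its signals were 53.0, 62.6 and 65.4 in heterozygous brains and 43.3, 62.4 and 23.3 in wild-type brains. Wild-type brain 2 lay within the heterozygous range, and the standard error was 0.23. Cox5a, a subunit on the matrix side, had 3881, 4480 and 3726 in heterozygous brains and 4324, 4839 and 3813 in wild-type brains, overlapping, a difference of -0.10 (SE 0.11). At another Cox5a probe set, 1448153_at, heterozygous brains had 4277, 3961 and 3959, against 3800, 3842 and 3841 in wild-type brains. There the genotypes did not overlap and the difference was 0.09, so the sign for Cox5a depends on the probe set.

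Among the common isoforms, Cox4i1 had 7117, 7078 and 6370 in heterozygous brains and 5822, 6756 and 5885 in wild-type brains, a difference of 0.16 (SE 0.09). Cox6a1 had 7786, 7355 and 6477 in heterozygous brains and 6368, 7153 and 6289 in wild-type brains, a difference of 0.12 (SE 0.09). In both, wild-type brain 2 lay above heterozygous brain 3 and the genotypes overlapped. Cox6b1, Cox7a2 and Cox8a gave 0.07, 0.06 and 0.08, each with overlap.

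Of the 8 genes counted as restricted isoforms, Ndufa4l2 among them, 7 were tested, with 4 higher and 3 lower in sign. Cox8c, 1 of the 7, gave 0.11 (SE 0.16). Cox6a2, a heart and skeletal muscle isoform, had 122, 189 and 146 in heterozygous brains and 87.0, 154 and 137 in wild-type brains, overlapping, a difference of 0.26 (SE 0.20). Cox7a1 and Cox8b, also muscle isoforms, gave -0.06 each. Signals of 48.6 to 77.5 in heterozygous and 62.9 to 74.7 in wild-type brains were measured for Cox7a1, and of 26.4 to 50.3 in heterozygous and 33.3 to 43.4 in wild-type brains for Cox8b. Beside them, 6 of 10 striated muscle markers were tested, these 3 isoforms among them, and the list summed to 384 to 478 in heterozygous and 328 to 421 in wild-type brains. The markers Myh1, Myh4, Tnni2 and Tnnt3 were too dim to test.

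The testis isoforms Cox6b2 and Cox7b2 gave 0.09 (SE 0.15) and -0.16 (SE 0.23). Cox7b2 had 22.1, 30.5 and 29.0 in heterozygous brains and 37.9, 18.4 and 43.5 in wild-type brains, near the dim limit. Ndufa4l2, a relative of Ndufa4 induced by low oxygen, gave 0.17 (SE 0.16). Cox4i2, the lung isoform that low oxygen also induces, was not tested, with 32.4, 15.5 and 14.5 in heterozygous brains and 12.6, 11.0 and 6.35 in wild-type brains. None of these isoforms passed the test.

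ATP synthase turns the proton gradient into ATP by rotation. Of its 17 genes 13 were higher and 4 lower in sign, with a median of 0.07. That median was 0.03 without wild-type brain 3, 0.04 without heterozygous brain 2, 0.12 without heterozygous brain 3 and 0.13 without wild-type brain 2. The 3 central stalk genes, the 2 catalytic head genes and the 3 genes for the c ring were all higher in sign. Of the 4 peripheral stalk genes, which hold the head still, 1 was higher and 3 were lower in sign (median -0.02). These counts hold for the brightest probe sets only. The second probe set turned the sign of all 3 peripheral stalk genes that had one, Atp5h (-0.03 and 0.07), Atp5pb (-0.02 and 0.06) and Atp5o (0.16 and -0.22). It also turned the sign of Atp5a1 of the head (0.12 and -0.06) and of Atp5c1 of the central stalk (0.09 and -0.04). The difference between these groups was not tested.

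Atp5a1, the alpha subunit of the head, had signals of 4397, 3881 and 3885 in heterozygous brains and of 3594, 3784 and 3829 in wild-type brains. The genotypes did not overlap, by a narrow gap, and the difference was 0.12 (SE 0.08, limma adjusted p = 0.956). Both other tested probe sets of Atp5a1 gave -0.06. Of these, 1420037_at was dim, with means of 79.8 in heterozygous and 87.1 in wild-type brains (SE of the difference 0.26). Averaging the 3 with equal weight gave 0.00, so no direction can be given for Atp5a1. Atp5b, the beta subunit that forms ATP, had 5665, 5133 and 5209 in heterozygous brains and 5000, 5180 and 5184 in wild-type brains, which overlapped, a difference of 0.06.

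Atp5g2, one of 3 genes for the same mature c subunit, had 2126, 1843 and 1637 in heterozygous brains and 1663, 1740 and 1617 in wild-type brains. Only heterozygous brains 1 and 2 lay above the wild-type range, and the difference was 0.15 (SE 0.10). Its companions Atp5g1 and Atp5g3 gave 0.09 and 0.05. Atp5j, the peripheral stalk subunit known as coupling factor 6, had 2783, 2822 and 2933 in heterozygous brains and 2919, 2821 and 3037 in wild-type brains, overlapping, a difference of -0.04 (SE 0.08).

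Atp5md, a small protein that joins ATP synthase dimers, had 3419, 4077 and 2189 in heterozygous brains and 3706, 3448 and 3129 in wild-type brains. Heterozygous brain 3 stood far below the others, and the difference was -0.13 (SE 0.18) with that brain and 0.13 without it. Atp5e, the epsilon subunit of the central stalk, had 1777, 2463 and 1681 in heterozygous brains and 1487, 2210 and 1313 in wild-type brains, a difference of 0.25 (SE 0.19). Both number 2 brains were high in Atp5e, and wild-type brain 2 lay above heterozygous brains 1 and 3.

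Probe sets of the same gene gave different answers in many members. Of 46 genes with at least 2 tested probe sets, 21 had the same sign at all of them and 25 did not. The same count over all genes was not made. Some of the 25 rest on a value near 0, as in Ndufv1 (-0.0005). Others rest on a dim probe set, as in Uqcrq (means of 17.3 in heterozygous and 22.0 in wild-type brains). Across these 46 genes, the difference at the brightest probe set and that at the next brightest had a Pearson correlation of -0.05 and a Spearman correlation of -0.06, a description across genes measured on the same 6 arrays. The 72 tested probe sets that were not their gene's brightest were still mostly higher in sign, 48 of 72, with a median of 0.07. Ndufs8, a core iron-sulfur subunit of complex I, gave -0.02 at its brightest probe set and -0.00 to 0.33 at 5 others. Uqcr10 and Sdhc gave the same sign throughout, Uqcr10 higher and Sdhc lower.

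**Figure D4:**
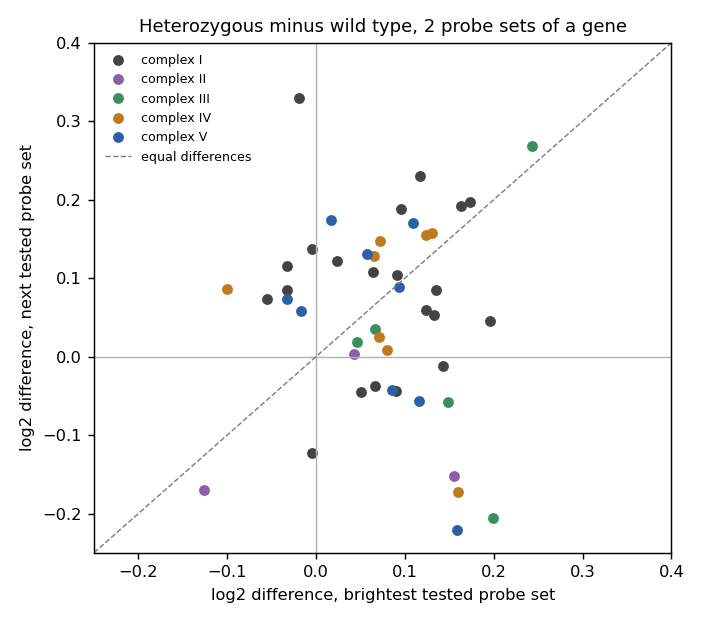
Log2 difference (heterozygous minus wild type) at the brightest tested probe set (x axis) and at the next (y axis) for the 46 members with at least 2 tested probe sets, coloured by complex. The points scatter around no line (Pearson -0.05), with most to the right of 0 and above 0.

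Genes around the respiratory chain were given from lists of the same pathway, and in each of them 0 genes passed the adjusted test. Mitochondrial ribosomal proteins, which translate the mitochondrially encoded subunits, had 58 of 76 higher in sign with a median of 0.08. Their level ran 0.00, 0.12 and -0.02 in heterozygous and -0.09, 0.07 and -0.07 in wild-type brains, the same order of arrays as for the members. Assembly factors outside the members had 23 of 37 higher (median 0.05) and carriers and porins that serve ATP synthase 7 of 8 (median 0.08). Krebs cycle enzymes had 11 of 17 higher (median 0.02), electron carriers and quinone synthesis 8 of 15 (median 0.03) and protein import 15 of 25 (median 0.03). Regulators of mitochondrial biogenesis, among them the factors whose motifs were searched above, had 9 of 24 higher and 15 lower (median -0.03).

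Lists outside the mitochondrial pathway were not flat. Cytosolic ribosomal proteins had 32 of 43 higher in sign (median 0.05), glycolysis 12 of 14 (median 0.06) and proteasome subunits 26 of 37 (median 0.03). Glycolysis was high in heterozygous brain 1 alone, at 0.15, with heterozygous brains 2 and 3 at -0.02 and -0.05 and wild-type brains at -0.06, -0.00 and -0.02. The members' higher sign share, 74.2%, was therefore shared by several other lists, and nothing particular to the members is read from it.

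Of the neighbours, the protein import motor subunit Timm44 had 500 ± 31.0 in heterozygous brains and 400 ± 3.74 in wild-type brains (SD, n = 3 each), a difference of 0.31 without overlap. Tomm70a, the lowest by t of the same import list, had 1516 ± 130 in heterozygous and 1734 ± 72.8 in wild-type brains, a difference of -0.19 with overlap. Of the 25 import genes tested, 4 were higher and 2 lower without overlap, where 5.21% and 4.97% of all genes were. Mrpl35, of the large mitochondrial ribosomal subunit, had 486 ± 11.9 in heterozygous and 397 ± 11.9 in wild-type brains, without overlap. Mrpl33 of the same subunit went the other way, with 145 ± 29.4 in heterozygous and 210 ± 60.3 in wild-type brains. Each had an adjusted p of 0.956 (limma). The only mitochondrially encoded gene with a probe set of its own was ND5, a membrane subunit of complex I, with 11474 ± 964 in heterozygous and 10147 ± 492 in wild-type brains, a difference of 0.18 without overlap (SE 0.09, limma adjusted p = 0.956).

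**Figure D5:**
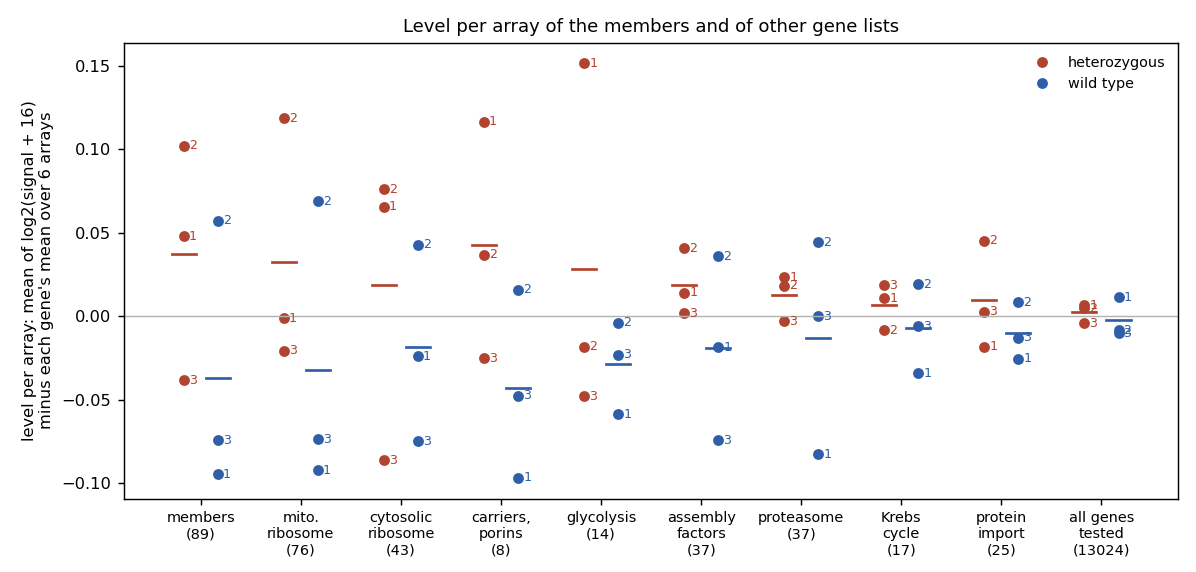
Level per array (y axis, as for the complexes) of the members, of other gene lists and of all genes tested (x axis, gene numbers in brackets), heterozygous brains left and wild-type brains right, with replicate numbers and bars at the means. The members and the mitochondrial ribosomal proteins place the arrays in the same order, glycolysis is high in heterozygous brain 1 alone, and all genes together stay within 0.02.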

How the data were processed

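Whole-brain RNA of 3 heterozygous and 3 wild-type mice was labelled from an oligo(dT) primer and hybridised to 1 array each, per the labels' protocols. The values are the authors' deposited intensities, linear and 1 per probe set and array, already scaled to a common level. The labels name no tool for summarising the probes. Probe sets were named from the platform annotation, with symbols updated through a RefSeq table of GRCm38.p6.

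Of 45101 probe sets, 64 controls were set apart and 18015 at or below the 40th percentile of mean signal were removed, which left 27022. Genotypes were compared on log2(intensity + 16) with limma 3.58.1 in R 4.3.3 (lmFit, eBayes with trend, no covariate), adjusted over all probe sets tested. The steps were tested on simulated data with independent probe sets and planted changes larger than the members' differences. That test does not cover differences of the members' size or genes that move together. Precision is limited by 3 arrays per genotype. For single genes a two-sided exact permutation test was run.

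The members, the lists and the rule for named genes were chosen with earlier results of these data known. Genes with full values are the 2 highest and 2 lowest moderated t values of each complex (1 each for complex II), those at an unadjusted p under 0.05, Ndufa4, Ndufv1, Sdhc and Cox5a, isoform pairs, and genes whose probe sets conflict. Uqcr10, Ndufs8, Atp5e, Atp5b, the genes without overlap and the other members named beside them were added after their values were seen. Of the genes highest or lowest by t in the other lists, only some are named. Alternatives covered scaling, pseudocount, dim filter, eBayes options, array weights, a replicate block, averaging of probe sets and leaving out each array.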

Additional observations from a re-analysis of the deposited data

How the results depend on the processing

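No member passed an adjusted p of 0.05 under any alternative that was fitted (averaging probe sets gave no p), and the lowest adjusted p of a named gene was 0.652. The members' median stayed above that of all genes throughout: 0.05 with median centring, which moved the median of all genes to -0.03 and their share of higher genes to 41.9%, against 0.06 with quantile normalization, and 0.05 to 0.13 when each array was left out. With arrays left out in turn, 62 to 75 genes were higher in sign, the level difference was 0.04 to 0.12, 0 to 11 genes were higher and 0 to 1 lower at an unadjusted p under 0.05, and 8 to 36 were higher and 0 to 4 lower without overlap. Fewer arrays overlap less often, also over all genes.

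Median centring gave 1 gene higher at an unadjusted p under 0.05 (main 3, all genes 1.26%), 1 higher without overlap (main 8, all genes 3.29%) and 1 lower (main 0, all genes 7.26%). Without the trend, 0 genes were higher at an unadjusted p under 0.05. Averaging a gene's probe sets gave 3 higher without overlap (all genes 5.33%). With the 2 arrays of most pituitary signal left out, chosen after seeing the data, 28 (31.5%) were higher and 2 lower without overlap, against 18.1% and 15.0% of all genes. The deviations of same-numbered arrays correlated at 0.09, 0.20 and -0.02, and those of differently numbered arrays of the 2 genotypes at -0.16 to 0.08. No pairing of the numbers is known, and 3 arrays per genotype are too few to decide it. The replicate block gave 7 genes higher at an unadjusted p under 0.05 (all genes 3.26%) and none adjusted.

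Of 29 named genes tested, 19 kept their sign in every setting. Cox7a2 was -0.0223 with quantile normalization. Averaging probe sets gave Ndufs4 -0.0302, Uqcrq -0.0032 and Ndufc1 0.0087. The pituitary setting gave Atp5md 0.184, Cox6b2 -0.0808, Cox7a1 0.158, Cox8b 0.0185 and Uqcrfs1 0.0702. Leaving out single arrays moved Cox8a between -0.0131 and 0.150, Atp5md between -0.320 and 0.126, Cox6b2 between -0.0264 and 0.216, Cox7a1 between -0.175 and 0.0911, Cox8b between -0.234 and 0.0885, Ndufc1 between -0.101 and 0.0001, and Uqcrfs1 between -0.0541 and 0.0472. Median centring moves every gene of an array by the same amount, and it lowered the medians of all complexes alike. They became I 0.06, II 0.06, III 0.08, IV 0.06 and V 0.04. With quantile normalization they were I 0.06, II 0.10, III 0.06, IV 0.07 and V 0.04. With the 2 arrays of most pituitary signal left out they were I 0.05, II 0.12, III 0.08, IV 0.12 and V 0.11. The cause of the shifts in these last 2 settings was not tested.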
